A study of Mus musculus with 3 samples.

Results

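The genes described here are 44 homeobox and Pax genes, many of them best known from the nervous system, the eye and the face. The question was where Isl1 occupied chromatin at these genes in cardiac progenitor cells (CPCs). They were chosen by gene name, namely 6 Dlx genes, Six2, Six3, Six4, Six5 and Six6, 9 Pax genes, Otx1, Otx2, Emx1 and Emx2, Gsx1, Gsx2, Vax1 and Vax2, Msx1 and Msx2, En1, En2, Gbx1 and Gbx2, Pitx1 and Pitx3, Prrx1 and Prrx2, Alx1, Alx4 and Phox2a, and Cdx1, Cdx2 and Mnx1. A gene counted as having a peak when the closest-transcription start site (TSS) assignment in the authors' list of Isl1 peaks gave its symbol. Of the 14082 distinct peaks in that list, 48 were assigned to 33 of the 44 genes, and the other 11 genes had none.

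The chromatin came from CPCs made by directed differentiation of mouse E14 Tg(Nkx2-5-EmGFP) embryonic stem (ES) cells, which carry a green fluorescent reporter for the early cardiac gene Nkx2-5, and it was collected at day 5. The factors added were LIF and BMP4, then Activin A, VEGF and BMP4 on aggregates, then VEGF, bFGF and FGF10 on a monolayer. Both groups, Isl1 ChIP (n = 2) and input (n = 1), came from this same line and protocol, so one ES cell line stands for the cell type. The Isl1 pulldowns used 1 monoclonal antibody, the input took none, and chromatin from cells without Isl1 was not analysed here. The labels do not say whether the replicates were separate differentiations or whether the cells were sorted before the pulldown. A list of peaks holds no expression values, so the cell type could not be checked against its markers here.

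Homeobox genes encode transcription factors that touch DNA through a helix-turn-helix domain, and most of them favour sites with a TAAT core. Pax factors carry a paired domain, and some carry a homeodomain as well. In the embryo many of these genes lay out the forebrain, the boundary between midbrain and hindbrain, the eye, the branchial arches and the spinal cord. Their start sites often lie in CpG islands that Polycomb complexes hold silent in other lineages. Isl1 is itself a LIM-homeodomain factor that acts in motor neurons as well as in the second heart field. A peak marks where reads were enriched over input, and gives no measure of the strength of binding or of the activity of the gene.

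Of the 48 peaks, 21 covered the TSS and 36 were CpG-rich, meaning GC content over 50% and an observed to expected CpG ratio over 0.6 across the whole peak. The following stretches of 120 bp are shown as parts of such CpG-rich peaks inside genes of 6 families (mm9, strand of the gene, 5′ to 3′). A stretch need not meet the definition itself. The Msx1 peak had a CpG ratio of 0.716 as a whole and of 0.483 in its central 200 bp. Each comes from the widest peak of its family among the single-copy peaks within 1 kb of the TSS whose midpoint lay in a coding exon and whose stretch held no annotated UTR, so that wider peaks with midpoints elsewhere, such as that of Emx1, were passed over. Capitals mark CpG dinucleotides. They lie at chr7:19680185-19680304 on the + strand (Six5), chr2:93483040-93483159 on the + strand (Alx4), chr5:29804648-29804767 on the − strand (Mnx1), chr5:38215356-38215475 on the − strand (Msx1), chr6:6813708-6813827 on the + strand (Dlx6) and chr19:59533913-59534032 on the + strand (Emx2). All but that of Dlx6, which is 36 bp off, are centred on the peak midpoint.
Six5: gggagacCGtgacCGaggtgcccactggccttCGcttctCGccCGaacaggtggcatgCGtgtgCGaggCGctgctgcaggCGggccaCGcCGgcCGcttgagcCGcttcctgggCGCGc
Alx4: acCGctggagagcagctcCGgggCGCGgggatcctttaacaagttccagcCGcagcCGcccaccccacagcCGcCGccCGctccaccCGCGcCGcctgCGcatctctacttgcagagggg
Mnx1: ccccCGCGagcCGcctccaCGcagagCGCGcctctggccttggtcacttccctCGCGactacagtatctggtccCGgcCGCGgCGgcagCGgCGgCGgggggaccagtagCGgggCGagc
Msx1: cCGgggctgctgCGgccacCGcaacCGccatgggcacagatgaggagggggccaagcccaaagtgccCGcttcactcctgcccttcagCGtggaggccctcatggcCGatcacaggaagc
Dlx6: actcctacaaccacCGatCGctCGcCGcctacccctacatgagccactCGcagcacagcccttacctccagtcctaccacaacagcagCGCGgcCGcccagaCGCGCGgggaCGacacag
Emx2: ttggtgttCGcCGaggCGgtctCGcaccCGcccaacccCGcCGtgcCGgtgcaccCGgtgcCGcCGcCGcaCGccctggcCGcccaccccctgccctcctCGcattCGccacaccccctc
The number of CpG dinucleotides was 15 for Six5, 13 for Alx4, 17 for Mnx1, 7 for Msx1, 12 for Dlx6 and 16 for Emx2. The GC content ranged from 65.8% at Dlx6 to 77.5% at Emx2, and the stretch with the fewest CpG dinucleotides, at Msx1, had 68.3%.

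Isl1 peaks were assigned to most of the 44 genes. The share with at least 1 peak was 75% (33 of 44, 95% Wilson interval 60.6% to 85.4%), beside 39.1% of 21027 protein-coding genes. A peak lay within 1 kb of the TSS for 24 genes (54.5%, interval 40.1% to 68.3%), beside 24.2% of protein-coding genes, and within 10 kb for 28 genes (63.6%), beside 28.3%. At least 2 peaks were assigned to 13 genes (29.5%), beside 11.0%. The intervals treat genes as independent draws and cover sampling error only, because both ChIP replicates had been combined before the list was made.

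Peak number per gene was 1.09 ± 0.83 (SD over 44 genes) against 0.581 ± 0.975 over all protein-coding genes. Among genes that had a peak at all, the means were 1.45 ± 0.617 (33 genes) and 1.49 ± 1.04 (8216 genes). Each SD is a spread over genes and not the error of a mean. The highest number at one of the 44 genes was 3, at Pax2 and Otx1. Of the 48 peaks, 13 had another peak midpoint within 10 kb (27.1%, beside 12.6% of all peaks). All of them but the Vax2 peak stood in pairs assigned to the same gene, at Gsx1, Six5, Six4, Alx4, Pitx1 and Otx1.

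Other homeobox families were set beside these genes without a test between lists, and these lists are not exhaustive. An assigned peak was found for 8 of 10 Lhx and Lmx genes (80%, Wilson interval 49.02% to 94.3%), for 27 of 40 other genes of the ANTP and PRD homeobox classes (67.5%, interval 52.02% to 79.9%), for 8 of 14 Nkx genes (57.1%, interval 32.6% to 78.6%) and for 18 of 39 Hox genes (46.2%, interval 31.6% to 61.4%). Within 1 kb of the TSS the counts were 6 of 10, 15 of 40, 6 of 14 and 15 of 39. For at least 2 peaks they were 1 of 10, 14 of 40, 3 of 14 and 2 of 39, beside 13 of the 44 genes. The interval of the 44 genes for any assigned peak lay above the value of all protein-coding genes. It overlapped those of the other lists, that of the Hox genes only between 60.6% and 61.4%. Overlap of intervals is not a test of a difference, and all lists were chosen with earlier results of these data known.

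**Figure D1:**
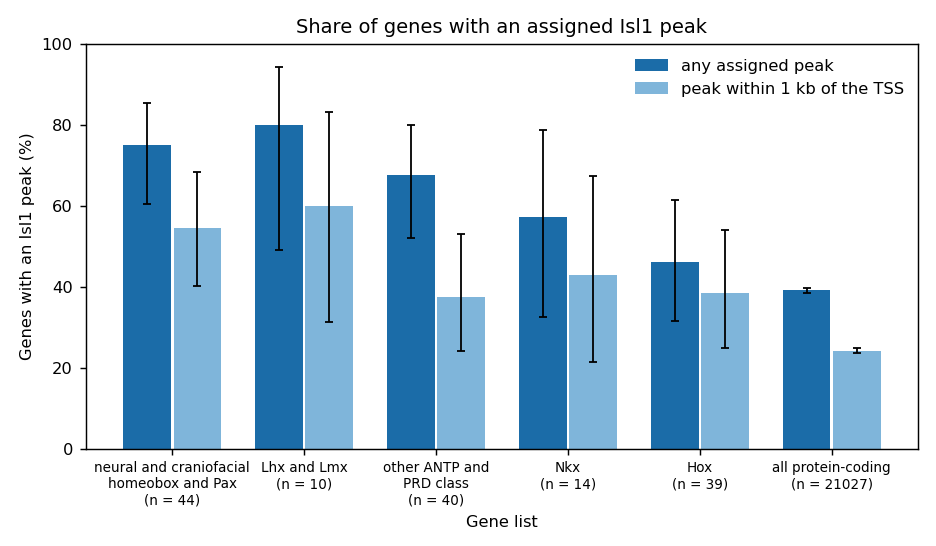
Share of genes (%) with an Isl1 peak in 5 lists of homeobox genes and among all protein-coding genes, for any assigned peak (dark bars) and for a peak within 1 kb of the TSS (light bars), with 95% Wilson intervals. The 44 neural and craniofacial homeobox and Pax genes stand at 75% and 54.5%, against 39.1% and 24.2% for all protein-coding genes.

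The peaks were divided between the TSS and more distant positions. By the deposited distance, 24 of 48 peaks were within 1 kb (50%, beside 38.5% of all peaks), 10 were 1 to 10 kb away and 14 were farther, 8 of these upstream. Of the 24, the midpoint was downstream of the TSS in 21 (87.5%, beside 80.9% of all peaks within 1 kb), and the peak covered the TSS in 21 (87.5%, beside 93.9%). The midpoint lay at a median of 313 bp downstream, against 152 bp for other peaks within 1 kb. It fell in a coding exon for 15 of the 24 (62.5%, interval 42.7% to 78.8%), beside 23.9% of all peaks within 1 kb, and in a UTR for 7 (29.2%), beside 39.7% of other peaks within 1 kb.

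**Figure D2:**
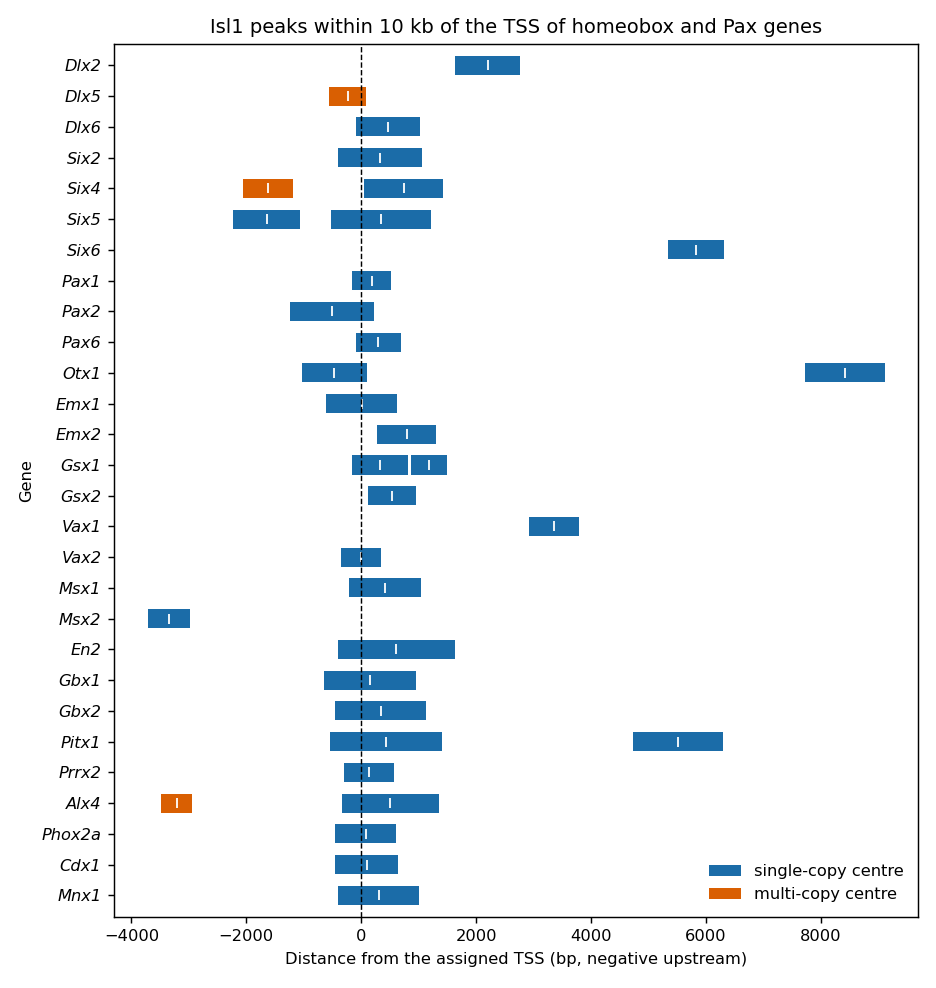
Extent of each Isl1 peak within 10 kb of the assigned TSS for the 28 genes that had one, as distance from the TSS in bp (negative upstream), with a white tick at the peak midpoint and colour for copy number. Peaks at 21 genes cross the TSS, and at Dlx2, Six6, Vax1, Msx2, Six4, Emx2 and Gsx2 no peak does.

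The Dlx genes drive branchial arch and forebrain interneuron development, and most of them sit in convergent pairs. Dlx5 and Dlx6, one such pair, each had a peak at the TSS, at chr6:6831990-6832621 with its midpoint 237 bp upstream of Dlx5 and at chr6:6813246-6814360 with its midpoint 469 bp downstream of the TSS of Dlx6. The pair of Dlx1 and Dlx2 had 1 peak, of 1123 bp at chr2:71382047-71383170. It lay in the third exon of Dlx2, 2203 bp downstream of that TSS and 13771 bp from the TSS of Dlx1, which had no peak of its own. Dlx4 had a single-copy peak 56486 bp upstream, and Dlx3 had none, with the nearest peak 43523 bp upstream and assigned to the integrin gene Itga3.

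The peak at Dlx5 differed in sequence from the others near a TSS. It was the only one of the 24 peaks within 1 kb whose centre was multi-copy, that is, whose central 200 bp consisted of 31-base words with a median of at least 2 occurrences in the genome. The median was 12451 for 31-base words and 1 for words of 75 bases. Its central 120 bp, at chr6:6832246-6832365 on the − strand, are shown because they hold simple repeats, with the longest run of CT in capitals (50 bases). This stretch was chosen after its values were seen.
Dlx5: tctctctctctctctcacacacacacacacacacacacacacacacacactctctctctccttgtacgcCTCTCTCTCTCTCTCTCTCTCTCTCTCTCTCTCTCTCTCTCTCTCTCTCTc
The centre had a GC content of 47.5%, the lowest among the 24 peaks within 1 kb.

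Six2 and its relatives act in the eye, the kidney, the cranial placodes and muscle. Six2, a gene of nephron progenitors and of the face, had a peak of 1466 bp at chr17:86086528-86087994 over its TSS and another of 1292 bp located 112314 bp upstream. The distant peak was single-copy and CpG-rich. Six4 had a peak at chr12:74212799-74214175 in its first exon, 745 bp downstream, and a second at chr12:74215412-74216283, 1615 bp upstream, whose 31-base words had a median of 141 copies. Six5 carried the widest peak of this family, 1744 bp at chr7:19679372-19681116 over the TSS. A further peak at chr7:19677663-19678834 was given to Six5 although its midpoint lay in an intron of the neighbouring gene Dmpk. For Six6, a regulator of eye and pituitary development, the peak at chr12:74046209-74047190 was intergenic and 5830 bp downstream of the TSS.

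Pax genes fell into those with a peak at the TSS and those with distant peaks. Pax1, which acts in the sclerotome, had a peak of 680 bp at chr2:147190575-147191255 in coding sequence, 185 bp downstream. Pax6, the regulator of eye development, had one of 784 bp at chr2:105516194-105516978. Pax2, which acts in kidney, optic stalk and midbrain, had one of 1449 bp at chr19:44830654-44832103 with its midpoint 506 bp upstream of the assigned TSS. By the annotation used here, that midpoint lay inside Pax2, in a UTR of the first exon. Pax2 had 2 more single-copy peaks, 31120 bp and 64528 bp upstream. The peaks of the neural crest gene Pax3 lay 20065 bp and 49814 bp upstream. The nearer of these was 1456 bp wide, single-copy and with a CpG ratio of 0.871, and the farther had a median of 1843 copies. Pax7, a gene of neural crest and muscle stem cells, had an intronic peak 11256 bp downstream. Pax9 had an intronic peak 12211 bp downstream and one 163761 bp away in an intron of Slc25a21 with a median of 55587 copies. Pax4, Pax5 and Pax8 had no assigned peak.

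A peak lay within 1 kb of the TSS for 3 of 4 Otx and Emx genes and for 3 of 4 Gsx and Vax genes. Otx1 had peaks at chr11:21901551-21902691, with its midpoint 467 bp upstream, at chr11:21892534-21893935, which is intergenic and 8420 bp downstream, and at a position 94351 bp downstream with a median of 2194.5 copies. The midpoint 467 bp upstream of the assigned TSS lay in an annotated intron of Otx1. Otx2, its close relative, had none, and the nearest peak was 186129 bp away. Emx1 and Emx2, which pattern the cortex, had peaks of 1235 bp at chr6:85137315-85138550 and of 1016 bp at chr19:59533464-59534480. Gsx1 and Gsx2, which act in the ventral forebrain, had peaks at chr5:148000105-148001085 and chr5:75471738-75472581 in their first exons, and Gsx1 had another at chr5:148001143-148001763, only 858 bp from the former by midpoint and in the next exon. Among the optic genes, Vax2 had a peak at chr6:83660916-83661603 with its midpoint 1 bp from the TSS, whereas that of Vax1, at chr19:59240724-59241590, was in the third exon, 3362 bp downstream.

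The En and Gbx genes include regulators of the boundary between midbrain and hindbrain. The widest of the 48 peaks was that of En2, 2034 bp at chr5:28491831-28493865 over the TSS, and En2 had another peak 46437 bp upstream. Its relative En1 had only a peak 120592 bp downstream, with a median of 233.5 copies. Gbx1 had a peak of 1611 bp at chr5:24031706-24033317, where the central 200 bp reached a GC content of 83.5%, the highest of all 48. Gbx2 had one of 1581 bp at chr1:91826624-91828205, and one 37325 bp upstream in a coding exon of Asb18. The TSS of Gbx2 used by the authors was 2114 bp from the closest one in the annotation used here. From the annotated TSS the midpoint of the former peak lay 2451 bp away, against 337 bp by the deposited distance. That midpoint lay within the annotated Gbx2 gene and in a coding exon of the overlapping D130058E05Rik.

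The genes of the face and limb were divided. Msx1 and Msx2 act downstream of BMP signalling in the arches, the limb and the outflow tract cushions. Msx1 had a peak of 1249 bp at chr5:38214791-38216040 in coding sequence, 409 bp downstream, and Msx2 had one of 737 bp at chr13:53571124-53571861, intergenic and 3343 bp upstream. Pitx1, a gene of hindlimb and jaw, had wide peaks near either end of the gene, 1947 bp at chr13:55931386-55933333 over the TSS and 1565 bp at chr13:55926493-55928058, with its midpoint in a UTR of the third exon. Prrx2 had a peak of 868 bp at chr2:30700591-30701459, whereas Prrx1 had none and the nearest peak was 367131 bp away. Alx4, needed for skull and limb patterning, had a peak of 1678 bp at chr2:93482260-93483938 and one of 537 bp at chr2:93479111-93479648 with a median of 20 copies. Alx1 had none within 184700 bp.

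The remaining genes pattern motor neurons and the posterior body. Mnx1, a motor neuron and pancreas factor, had a peak of 1400 bp at chr5:29804007-29805407 over the TSS and one of 678 bp located 10493 bp downstream. Phox2a, which specifies noradrenergic and cranial motor neurons, had a peak of 1051 bp at chr7:108966378-108967429 with its midpoint 76 bp downstream. Cdx1, a posterior and intestinal gene, had a peak of 1086 bp at chr18:61195215-61196301 with its midpoint 95 bp downstream in coding sequence. Cdx2 had none, and the nearest peak lay 92961 bp upstream of its TSS and was assigned to Flt3.

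Relatives within a family therefore often differed in the list. A peak was assigned to Otx1 and not to Otx2, to Prrx2 and not to Prrx1, to Pitx1 and not to Pitx3, to Alx4 and not to Alx1, and to Cdx1 and not to Cdx2. The families where each gene had a peak were Gsx and Vax (4 of 4), En and Gbx (4 of 4) and Msx (2 of 2). Of Pax genes 6 of 9 had one, of the Dlx family 4 of 6 and of Six2 to Six6 4 of 5. With no read numbers in the list, a gene without a peak cannot be told from a gene whose peak fell under the cutoff in either replicate.

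Closest-TSS assignment also gave peaks inside these genes to other names. Of the 11 genes without an assigned peak, 3 held a peak within the gene. A peak of 720 bp at chr17:86014020-86014740, 1432 bp from a TSS of Six3, was assigned to the antisense transcript Six3os1 and lay in its exon. Pax5 held 2 intronic peaks, of 1586 bp at chr4:44716169-44717755 and of 952 bp at chr4:44676726-44677678, both assigned to 5730488B01Rik. A peak of 1681 bp at chr19:46210210-46211891 had its midpoint in a coding exon of Pitx3, 4423 bp downstream of its TSS, and was assigned to Elovl3. Among genes that did have a peak, Vax2 held another assigned to Vax2os and Pax2 another assigned to 1700039E22Rik. When any peak midpoint within 10 kb of a TSS was counted whatever its name, 31 of the 44 genes had one (70.5%), beside 34.1% of protein-coding genes. Of the 11 genes without an assigned peak, 5 had no peak of any name within 50 kb of a TSS, namely Pax8, Otx2, Prrx1, Alx1 and Cdx2.

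Sequence around the peak midpoint was compared with windows of equal length placed 2 kb away on both sides. The central 200 bp had a mean GC content of 69.3% ± 9.60 (SD over 48 peaks), against 66.6% ± 9.25 (SD over 14034 other peaks). In single-copy peaks within 1 kb of the TSS the means were 73.8% ± 4.56 (23 peaks) and 73.8% ± 5.73 (5254 peaks). The flanks of these 23 peaks had median GC contents of 51% and 54%, and the flanks of the other peaks 45.5% on either side. CpG-rich sequence made up 23 of the 24 peaks within 1 kb (95.8%, beside 94.0% of all such peaks) and 36 of all 48 (75%, beside 45.6%). Among single-copy peaks at any distance it made up 36 of 41 (87.8%), beside 79.5% of other single-copy peaks.

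**Figure D3:**
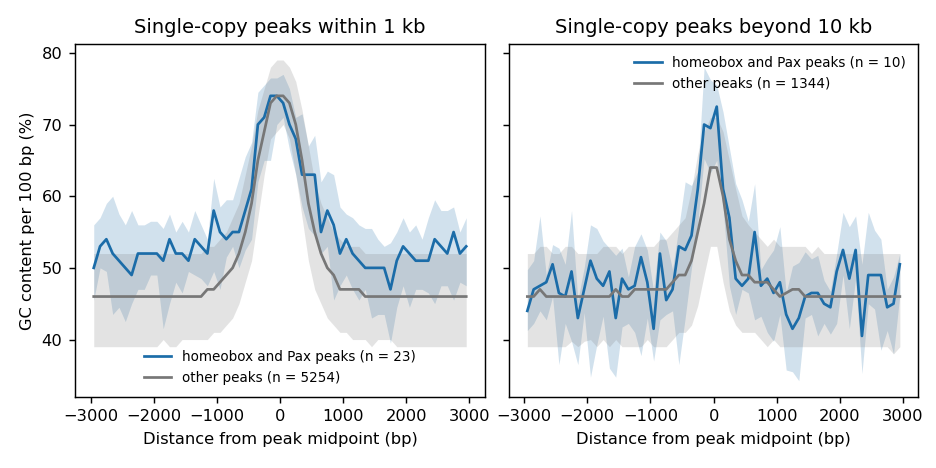
Median GC content (%) in 100 bp bins around the midpoint of single-copy Isl1 peaks, in bp from lower to higher coordinate, with the interquartile range shaded, for peaks within 1 kb (left) and beyond 10 kb (right) of the TSS. Near the TSS both sets reach a median of 74% beside the midpoint, and 2 kb away the 23 homeobox and Pax peaks have medians of 51% and 54% in 200 bp against 45.5% for the others.

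CpG content was also taken at the gene start, by the annotation used here. Within 500 bp of the TSS of the longest protein-coding transcript, sequence was CpG-rich for 33 of the 44 genes (75%) and for 48.1% of protein-coding genes. It was CpG-rich for 21 of the 24 genes with a peak within 1 kb (87.5%), for 12 of the 20 genes without one (60%) and for 4 of the 11 genes without any peak. The start of the longest transcript was not always the TSS to which a peak was assigned. Otx2 had a GC content of 42.4% there, Dlx1 44.6% and Prrx1 47.3%, while Pax4 and Pax8 had CpG ratios of 0.052 and 0.221, and all 5 were without an assigned peak. Dlx3, Six3, Alx1 and Cdx2 were without an assigned peak as well, and their starts were CpG-rich. The starts of Pax5 and Pitx3, which held peaks under other names, and of Vax1, which had an assigned peak, were not CpG-rich. Gbx2, Prrx2 and Pax6 were the genes with a peak within 1 kb and without CpG-rich sequence in that window, and their peaks themselves had CpG ratios of 0.901, 0.793 and 0.879. Among CpG-rich genes only, a peak within 1 kb was found for 21 of 33 (63.6%, interval 46.6% to 77.8%), beside 45.4% of 8718 protein-coding genes of that class. The part of CpG content in the share of genes with a peak was not tested.

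Distant peaks of these genes were more varied. Of the 14 peaks beyond 10 kb, 4 had multi-copy centres (28.6%, beside 81.2% of all peaks at that distance), those of En1, Otx1, Pax3 and Pax9, and these 4 stayed multi-copy with 75-base words. Across all 48 peaks 7 were multi-copy (14.6%, interval 7.25% to 27.2%), beside 46.5% of all peaks, and within 1 kb it was 1 of 24, beside 2.57%. The other 3 multi-copy peaks, at Dlx5, Six4 and Alx4, lay within 10 kb and were unique with 75-base words. A single-copy peak was assigned to 31 genes (70.5%), beside 28.7% of protein-coding genes, since Dlx5 and En1 had multi-copy peaks alone. Reads at multi-copy sequence can be placed at several positions by the aligner.

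Of the 10 single-copy peaks beyond 10 kb, 6 were CpG-rich, beside 34.2% of all such peaks. These were the peaks 112314 bp upstream of Six2, 37325 bp upstream of Gbx2, 31120 bp upstream of Pax2, 20065 bp upstream of Pax3, 11256 bp downstream of Pax7 and 10493 bp downstream of Mnx1. The CpG ratio was highest for the distant Gbx2 peak at 0.981 and reached 0.943 for that of Pax2. The intronic peak of Pax9 was the opposite, with a GC content of 37% in its centre and no CpG across 578 bp.

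Width is the only measure of size in the list. The 48 peaks had a median width of 990 bp (interquartile range 724.5 to 1382 bp, extremes 419 and 2034 bp), against 946.5 bp (717 to 1243 bp) for the others. Within 1 kb of the TSS the medians were 1187.5 bp (952 to 1495 bp) and 1049.5 bp (835 to 1312 bp), and the interquartile ranges overlapped. At least 1500 bp was reached by 6 of the 24 peaks, those of En2, Pitx1, Six5, Alx4, Gbx1 and Gbx2, or 25%, and by 15.2% of other peaks within 1 kb. The multi-copy peaks at these genes were narrow, with a median of 631 bp and none above 951 bp.

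**Figure D4:**
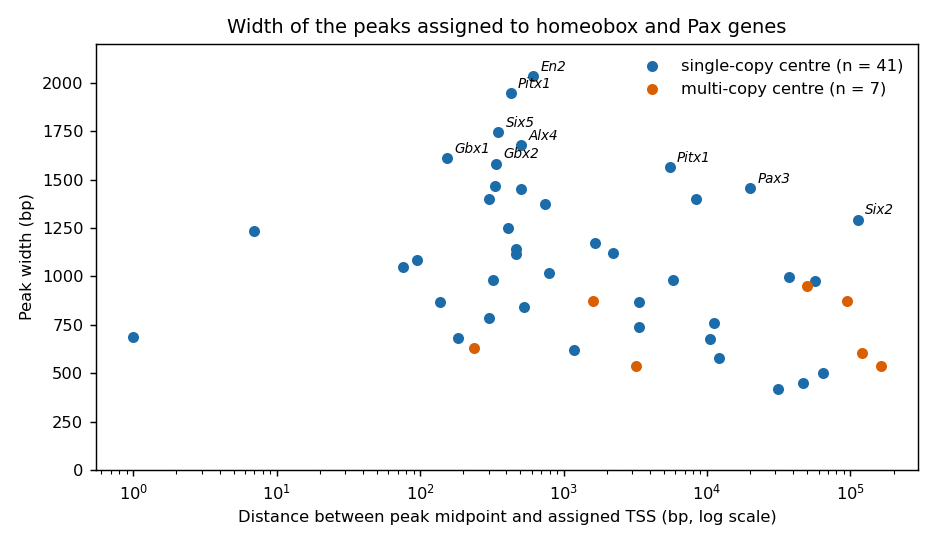
Width (bp) of each of the 48 peaks against the distance between its midpoint and the assigned TSS (bp, log scale), coloured by copy number of the centre. The widest peaks, led by En2 at 2034 bp, lie within 1 kb of the TSS, and beyond 10 kb the widest are those of Pax3 at 1456 bp and Six2 at 1292 bp.

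Short strings were sought on both strands, those of the homeodomain and LIM-homeodomain type and those of the GATA type. TAAT occurred in 8 of 48 centres (16.7%, interval 8.70% to 29.6%), beside 19.4% of all peak centres. Among single-copy peaks the order of the shares was the opposite, with 6 of 41 centres (14.6%, interval 6.88% to 28.4%) beside 9.64% of other centres. In the flanks TAAT occurred in 55.2% of 96 windows (interval 45.3% to 64.8%), beside 72.2% for other peaks. The 96 windows are 2 per peak, and the interval treats them as independent, so it may be too narrow. By side the shares were 58.3% (lower coordinate, interval 44.3% to 71.2%) and 52.1% (higher coordinate, interval 38.3% to 65.5%) of 48 windows. Other peaks had 72.1% and 72.4%. Among the 41 single-copy peaks the shares were 58.5% (lower coordinate, interval 43.4% to 72.2%) and 48.8% (higher coordinate, interval 34.3% to 63.5%). Other single-copy peaks had 63.99% and 64.39%, and only the interval of the lower side included the value of other single-copy peaks. CTAATTG or CTAATGG, both of which contain TAAT, occurred in 0 of 48 centres (interval 0% to 7.41%), beside 0.412% of all peak centres. In the flanks these strings occurred in 4 of the 96 windows (4.17%), beside 2.78% for other peaks. AGATAA or AGATAG or TGATAA or TGATAG occurred in 3 centres (6.25%), beside 4.22%, and in 19.8% of flanks (interval 13.1% to 28.9%), beside 35.6% for other peaks. This interval also treats the 2 flanks of a peak as independent. By side the shares were 22.9% (lower coordinate, interval 13.3% to 36.5%) and 16.7% (higher coordinate, interval 8.70% to 29.6%). Other peaks had 35.2% and 35.9%, and the interval of the lower side included the former. In single-copy peaks these flank shares were 22.0% (lower coordinate) and 17.1% (higher coordinate), beside 29.0% and 30.0% for other single-copy peaks. These strings are rich in A and T, while the centres are rich in G and C.

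Over the whole peak, CTAATTG or CTAATGG was found in 6 of the 48 peaks (12.5%, interval 5.86% to 24.7%), beside 5.00% of all peaks. The occurrences are shown with 10 bases on either side, on the strand that reads the string, with the string in capitals. They lie at chr11:95063962-95063988 (Dlx4, − strand), chr12:74046564-74046590 (Six6, + strand), chr19:44767468-44767494 (Pax2, − strand), chr13:53571634-53571660 and chr13:53571675-53571701 (Msx2, + strand), chr13:55933279-55933305 (Pitx1, + strand) and chr5:29805244-29805270 (Mnx1, − strand).
Dlx4: ctgtggccgtCTAATGGgatccctttt
Six6: gcctgaatggCTAATGGgtttgcccgc
Pax2: ctgcttcctgCTAATTGtgctctgagc
Msx2: acaattcgccCTAATGGgacaacctca
Msx2: acaattccttCTAATGGgccgcttgtt
Pitx1: cctgcgagctCTAATGGgccccggatg
Mnx1: gggcgtcaggCTAATTGgaccgtgaca
The strings were 122 bp (Six6) to 933 bp (Pitx1) from the peak midpoint. The Msx2 peak held 2 of them, 155 and 196 bp from its midpoint. In Dlx4, Six6, Pax2 and Msx2 the peaks were distant from the TSS by more than 1 kb, and in Pitx1 and Mnx1 they covered it. A match to these letters describes the sequence and does not show a bound site.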

How the data were processed

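Isl1 ChIP (n = 2) and input (n = 1) samples were grouped by their titles. The deposited values were one list of peaks in mm9 for both replicates. Per the published methods, the authors aligned reads with bowtie2, removed duplicates with Picard 1.136, called peaks with MACS14 without a fragment model, dropped blacklisted regions, kept peaks shared by the replicates with bedtools 2.15 and assigned the closest TSS with annotatePeaks.pl. No read numbers or scores were in it, so depth is unknown and no replicate error or test between samples was possible.

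The list had 14165 lines, of which 14082 were distinct and were used. The NCBIM37 genome and its GENCODE annotation gave sequence and gene positions, and 0 peaks ran past a chromosome end. Starts are uncertain by 1 bp. The protein-coding genes were those of a RefSeq table (GRCm38, names only) with a curated transcript, and 9305 names matched and 8 did not. Copy number, GC content and strings were computed in Python 3.11.15 with numpy 2.4.6 and numba 0.67.0, intervals with scipy 1.17.1, and the code was tested on simulated data with known answers. The genes and lists were chosen with earlier results of these data known, so shares are descriptions and no list was tested. All 44 genes are named. Coordinates are given for peaks within 10 kb of the TSS. Sequences were limited to coding stretches under single-copy peaks near a TSS where the TSS of the authors lay close to an annotated one, and to LIM-homeodomain type strings.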

Additional observations from a re-analysis of the deposited data

How the results depend on the processing

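No value could be recomputed without a replicate, since one peak list covers the pair. No paired analysis was possible because no column belongs to a single replicate and the only input has no number in its label. Of 39 alternative values, 32 stayed within the 95% interval of the value reported (for peaks per gene, within 1.5 times) and 7 moved. Some of the 32 could not move. The share of genes with a peak was unchanged by construction where only its background was replaced. With CTAATTG or CTAATGG in 0 of 48 centres, the shares in centres of 100 bp and in single-copy peaks were 0 by construction. Requiring at least 2 peaks left 13 of the 44 genes (29.5%) by construction, beside 11.0% of protein-coding genes. The median GC content was 71.25% in the central 200 bp and 66.6% over the whole peak (other peaks 66.5% and 60.8%). The window length by construction changed the strings. TAAT was in 8.33% of centres of 100 bp and 72.9% of whole peaks (other peaks 9.59% and 73.8%), CTAATTG or CTAATGG in 12.5% of whole peaks (4.97%), and the GATA type strings in 2.08% of centres of 100 bp and 50% of whole peaks (1.93% and 45.6%). The share of genes with a peak ranged from 70.5% (single-copy peaks, or any midpoint within 10 kb of a TSS) to 79.5% (closest protein-coding TSS of the annotation used here) over the other settings, and its background fell to 18.6% with all genes of the table. The share with a peak near the TSS was 40.9% within 500 bp (background 22.5%) and 63.6% within 10 kb (28.3%). Restricting genes to CpG-rich TSS sequence, an alternative chosen after seeing the data, raised the background from 24.2% to 45.4%.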
